A study of Mus musculus with 2 samples.

Results

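The mitochondrial carriers are the SLC25 proteins, which move metabolites, nucleotides, cofactors and ions across the inner mitochondrial membrane, and the uncoupling proteins of the same family. They are encoded in the nucleus and made in the cytosol, and most are inserted into the inner membrane by the TIM22 translocase, while a few reside in the outer membrane or in peroxisomes. GABP is a complex of an Ets protein, GABPα, which binds DNA with a GGAA core, and GABPβ, and it is known for binding the promoters of nuclear genes for mitochondrial proteins. The carriers were taken as the protein-coding genes of GENCODE M21 whose symbols begin with Slc25a, together with Ucp1, Ucp2 and Ucp3. This gave 50 genes of the 21938 protein-coding genes on chromosomes 1 to 19, X and Y. A carrier was called bound when an interval of the deposited GABPα peak list lay within 1000 bp of a start of any of its annotated transcripts. By this rule 15 of the 50 carriers were bound, through 16 of the 6782 peaks, and 35 were not.

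The peaks came from ChIP-seq with anti-GABPα (sc-22810X) on CD4+ T cells that were purified with magnetic beads from wild-type C57BL/6 mice. There was 1 ChIP library, and 1 library of input DNA from the same kind of cells was the control. The age of the mice and whether animals were pooled are not given in the sources used here. No replicate exists, so the values below describe that library, no p-value is given, and the 95% intervals (Wilson for shares, order statistics for medians) cover counting error only. The list holds the position of each peak and an empty score column. It therefore gives no depth, peak height or q value, and a peak list offers no marker by which the cell type could be checked. A carrier without a peak is a gene at which nothing passed the authors' cutoff, which does not show that GABPα was absent there.

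The GABP consensus was sought as CCGGAAG on both strands, and 10 of the 16 carrier peaks held it. In 9 of these the copy nearest the midpoint of the peak is given here on the strand on which it reads CCGGAAG (capitals), with 10 bases of GRCm38 (mm10) to either side. The tenth, at Slc25a46, is not printed. These windows are shown because they are the consensus copies inside peaks of bound carriers.
Slc25a11: gtctacctggCCGGAAGtcccacctct
Slc25a20: aggagggcagCCGGAAGtagacttcag
Slc25a26: gagttctgccCCGGAAGtagttgctcc
Slc25a17: agtctgtgacCCGGAAGcagtcgttct
Slc25a38: cgctatgtcaCCGGAAGcgggatctca
Slc25a25: ggcggggctcCCGGAAGcggcccctcc
Slc25a3: actagcagggCCGGAAGggctggggtt
Slc25a14: cagcgccaacCCGGAAGcattgaaacc
Slc25a5: ggccggcaggCCGGAAGtggacgccgg
They lie at chr11:70647532-70647558 (plus strand), chr9:108662047-108662073 (plus), chr6:94500304-94500330 (plus), chr15:81360826-81360852 (minus), chr9:120110326-120110352 (plus), chr2:32451447-32451473 (minus), chr10:91124126-91124152 (minus), chrX:48623743-48623769 (minus) and chrX:36796286-36796312 (plus), in the order of the list. Counting every copy, the 10 peaks held 14. The base after the motif was T in 8 of the 14 (57.1%), C in 4 and G in 2, and T was also the most frequent base there in the 2572 copies of all peaks at protein-coding starts (46.5%). CCGGAAG read in the direction of the gene in 8 of the 14 copies (57.1%, 32.6 to 78.6), and 10 of the 14 were upstream of the nearest transcript start.

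Carriers had a peak more often than protein-coding genes in general, and more of them also started in CpG-rich sequence, as described further on. Of the 50 carriers 15 were bound (30%, 95% interval 19.1 to 43.8), against 17.7% of all protein-coding genes. A peak covered a transcript start in 12 carriers (24%, 14.3 to 37.4), against 13.9%. A peak with CCGGAAG was within the same distance of 10 carriers (20%, 11.2 to 33.0), against 10.7%. In each of these 3 comparisons the lower end of the interval lay just above the value of all genes, but this did not hold under 2 other settings. With peaks at least as wide as the median of the list, 157 bp, 22% of carriers (12.8 to 35.2) were bound against 14.0% of all genes, and with a window of 5000 bp 30% (19.1 to 43.8) against 19.9%. Nor did it hold beside genes of like CpG content. Among those starting in CpG-rich sequence, as defined further on, 35.9% of carriers (22.7 to 51.6) were bound against 29.7% of all such genes. Among the rest it was 9.09% (1.62 to 37.7) against 3.81%. The rule had a clear margin: the bound carrier with the farthest peak was Slc25a5, at 618 bp, and the unbound carrier with the nearest peak was Slc25a2, at 5344 bp.

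**Figure D1:**
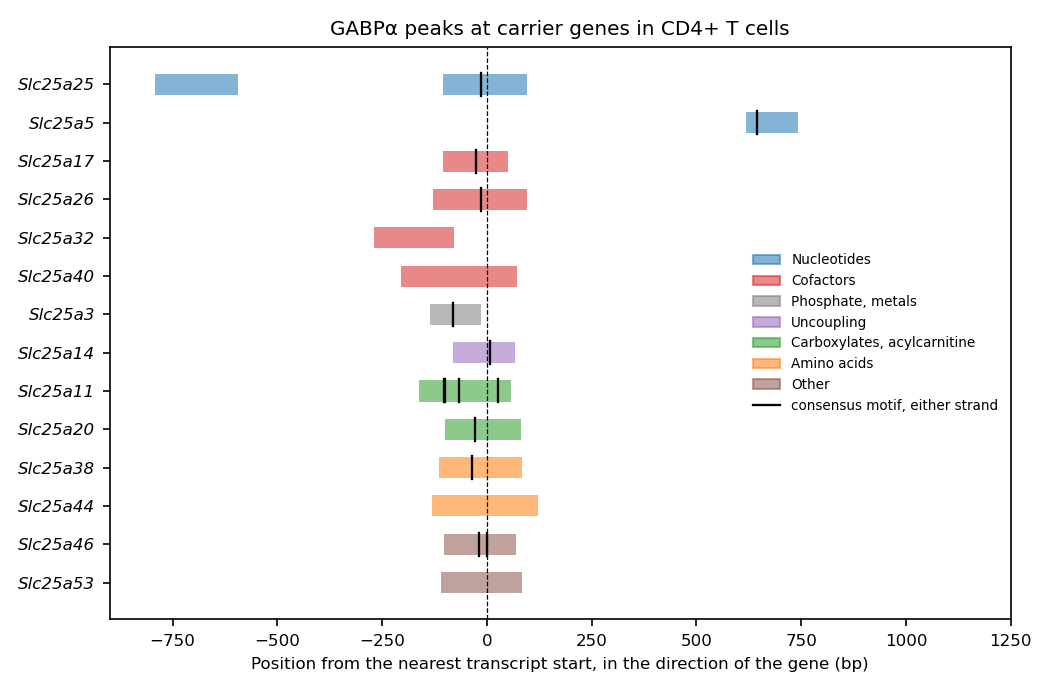
Position of 15 GABPα peaks at 14 bound carriers, in bp from the nearest transcript start of the gene and in its direction of transcription (dashed line: the start). Bars span the peaks and are coloured by substrate, and ticks mark copies of the consensus motif. Of these 15 peaks, 11 cover a start, and the peaks far from it are at Slc25a5 and the upstream peak of Slc25a25.

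Carriers of cofactors were the group with the most bound members, 5 of 9 (55.6%, 26.7 to 81.1). Slc25a17 (ENSMUSG00000022404.8), the peroxisomal carrier of coenzyme A, FAD and NAD, had a peak of 154 bp at chr15:81360763-81360916, over the start of the gene, with its motif 27 bp upstream of that start. Slc25a26 (ENSMUSG00000045100.11), which brings S-adenosylmethionine into mitochondria, had the widest carrier peak with CCGGAAG, 225 bp at chr6:94500203-94500427, with the motif 14 bp upstream of the start. In these 2 genes the consensus lay just ahead of the start and close to the middle of the peak, as it also did at Slc25a20, Slc25a25 and Slc25a38 of other groups. Over the 14 copies in carrier peaks the median distance from the nearest transcript start was 27.5 bp (14 to 100).

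Other bound cofactor carriers had peaks without CCGGAAG. At Slc25a32 (ENSMUSG00000022299.9), the carrier of folate and FAD, the peak of 192 bp at chr15:39112794-39112985 ended 78 bp upstream of the start and held the shorter CGGAAG 2 times. At Slc25a40 (ENSMUSG00000054099.11), which is related to the glutathione carrier Slc25a39, the peak of 276 bp at chr5:8422646-8422921 was the widest of all carrier peaks and held GGAA cores only. The core windows of both are shown to set them beside the consensus (capitals: CGGAAG at Slc25a32, GGAAG at Slc25a40).
Slc25a32: aggaagcccgCGGAAGgcggaagtag
Slc25a40: ccccggcgtaGGAAGggcggggagc
They lie at chr15:39112881-39112906 (plus) and chr5:8422751-8422775 (minus). In the window of Slc25a32 the second copy of CGGAAG follows the first after a single base. The unbound cofactor carriers were Slc25a16 and Slc25a42 of coenzyme A transport, Slc25a39, and Slc25a51, which carries NAD.

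Among nucleotide carriers 2 of 10 were bound (20%, 5.67 to 51.0). Slc25a25 (ENSMUSG00000026819.15), a calcium-regulated ATP-Mg/phosphate carrier, was the only carrier with 2 peaks. The peak of 201 bp at chr2:32451350-32451550 covered its start and held CCGGAAG 15 bp upstream of it. The peak of 199 bp at chr2:32452039-32452237 lay 594 bp upstream and held CGGAAG 1 time. Slc25a5 (ENSMUSG00000016319.3), the ADP/ATP carrier of proliferating cells, differed from the other carriers in position. Its peak of 124 bp at chrX:36796272-36796395 lay in an intron, 618 bp downstream of the nearest transcript start, with CCGGAAG 645 bp downstream of that start. The genome holds every 36-base sequence of the peak 1 time only, while within 500 bp of the gene start this was so for 88.1%. The muscle ADP/ATP carrier Slc25a4 and the germ-line carrier Slc25a31 had no peak, and neither had the ATP-Mg/phosphate carriers Slc25a23, Slc25a24, Slc25a41 and Slc25a54 or the pyrimidine nucleotide carriers Slc25a33 and Slc25a36.

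Of the carriers of carboxylates and acylcarnitines 2 of 5 were bound (40%, 11.8 to 76.9), and both held the consensus. Slc25a11 (ENSMUSG00000014606.14), the oxoglutarate carrier of the malate-aspartate shuttle, had the most copies of CCGGAAG of any carrier: its peak of 220 bp at chr11:70647421-70647640 held 4, between 26 bp downstream and 103 bp upstream of the start. Of these copies 2 overlap on opposite strands in the palindrome shown here in capitals, at chr11:70647566-70647595 (plus).
Slc25a11 palindrome: ttctcctaccCTTCCGGAAGtttttttgtt
Slc25a20 (ENSMUSG00000032602.6), which exchanges carnitine and acylcarnitine for fatty acid oxidation, had a peak of 181 bp at chr9:108661988-108662168 with the motif 28 bp upstream of the start. The citrate carrier Slc25a1, the dicarboxylate carrier Slc25a10 and the oxodicarboxylate carrier Slc25a21 were unbound. The shuttle partners of Slc25a11 in malate and aspartate exchange, Slc25a12 and Slc25a13, were unbound as well.

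Amino acid carriers were bound in 2 of 9 cases (22.2%, 6.32 to 54.7). Slc25a38 (ENSMUSG00000032519.11), the glycine carrier needed for haem synthesis, had a peak of 199 bp at chr9:120110259-120110457 with the motif 35 bp upstream of the start. Slc25a44 (ENSMUSG00000050144.13), the carrier of branched-chain amino acids, had a peak of 253 bp at chr3:88425017-88425269, over its start, which held 6 GGAA cores and no CGGAAG. The aspartate/glutamate carriers Slc25a12 and Slc25a13, the glutamate carriers Slc25a18 and Slc25a22, the ornithine carriers Slc25a2 and Slc25a15 and the basic amino acid carrier Slc25a29 had no peak.

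Of the carriers of phosphate and metals, 1 of 3 was bound. Slc25a3 (ENSMUSG00000061904.12), which supplies phosphate for ATP synthesis and also carries copper, had the narrowest carrier peak, 122 bp at chr10:91124074-91124195. It ended 15 bp upstream of the gene's start and held CCGGAAG 80 bp upstream of it. The iron carriers Slc25a28 and Slc25a37 were unbound, but the start of Slc25a37 could not be read in the same way as the others. None of the 36-base sequences within 500 bp of it (0%) occurs only 1 time in the genome, because the same 1001 bases, chr14:69284612-69285612, are present again at chr14:69502862-69503862, where the gene Gm16867 starts. The list does hold peaks in repeated sequence: the peak nearest to Slc25a37, 124 bp wide and 473244 bp from a transcript start, has 0% unique 36-base sequences. How reads with more than 1 match were treated is not given in the sources used here. What part the repeated sequence had in the missing peak was not tested.

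The uncoupling proteins Ucp1, Ucp2 and Ucp3 had no peak, and of the related Slc25a14, Slc25a27 and Slc25a30 the first was bound (1 of 6 in all, 16.7%, 3.01 to 56.4). The peak of Slc25a14 (ENSMUSG00000031105.16), 148 bp at chrX:48623669-48623816, began 256 bp into the gene and spanned the start of a shorter annotated transcript at 48623749. Its motif was 7 bp downstream of that alternative start. The nearest peak to a transcript start was 42005 bp away for Ucp1, 38535 bp for Ucp2 and 63887 bp for Ucp3, and Ucp2 and Ucp3, which are neighbours on chromosome 7, had the same nearest peak.

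Among the 8 other members 2 were bound (25%, 7.15 to 59.1). Slc25a46 (ENSMUSG00000024259.9), an outer membrane protein of mitochondrial dynamics, had a peak of 172 bp at chr18:31609842-31610013, over its start, with 2 copies of CCGGAAG, 1 of them on the start itself and 1 centred 20 bp upstream. Slc25a53 (ENSMUSG00000044348.14), whose substrate is not stated here, had a peak of 194 bp at chrX:137037948-137038141. Like that of Slc25a14, the peak covered an alternative start, at 137038032, and its nearer edge was 161 bp inside the gene. It held 2 GGAA cores and no CGGAAG, and 26.3% of its bases are soft-masked as repeats, the highest share among the carrier peaks. Slc25a34, Slc25a35, Slc25a43, Slc25a45, Slc25a47 and Slc25a48 were unbound.

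**Figure D2:**
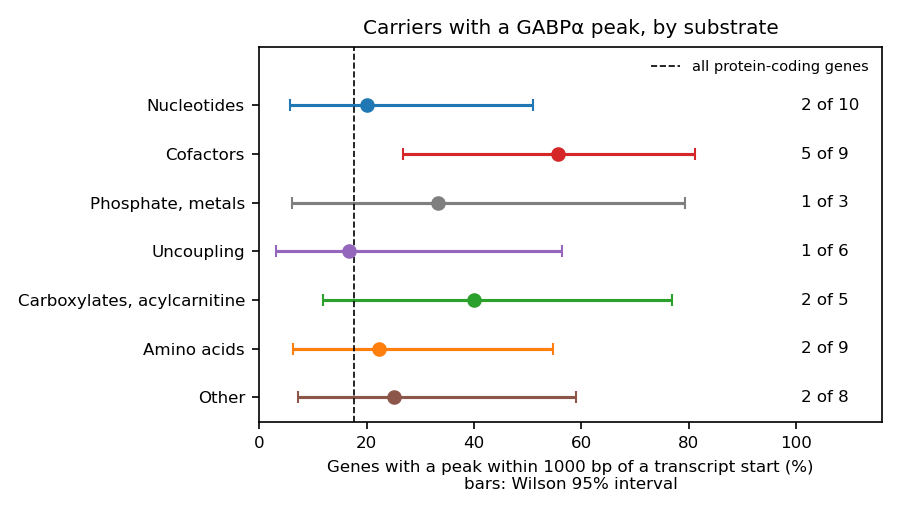
Share of carriers with a GABPα peak within 1000 bp of a transcript start, by substrate (points, with Wilson 95% intervals as bars and the counts at the right). The dashed line is the 17.7% of all protein-coding genes, and only the interval of the cofactor carriers, from 26.7 to 81.1%, lies above it.

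The substrate groups did not separate from each other. The interval of the cofactor carriers overlapped those of the other 6 groups, which had between 16.7% and 40% bound members, and no difference between groups was tested. Related carriers differed in having a peak in some sets. The 14 sets of related carriers were drawn up from textbook knowledge, and no sequences were compared. Of these sets 5 had both bound and unbound members: the ADP/ATP carriers (Slc25a5 bound), the ATP-Mg/phosphate carriers (Slc25a25 bound), Slc25a39 and Slc25a40 (Slc25a40 bound), Slc25a51 and Slc25a53 (Slc25a53 bound), and Slc25a14 with Slc25a27 and Slc25a30 (Slc25a14 bound). In the remaining 9 sets no member was bound, so no set was bound throughout. With 17.7% of all protein-coding genes bound, sets this small would seldom be bound throughout, and the pattern was not tested. The other bound carriers belonged to no such set.

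In width, position and motif the carrier peaks were like the peaks of other protein-coding genes. They were 122 to 276 bp wide (median 193 bp, 154 to 220), against a median of 210 bp (207 to 214) for the 3459 peaks within 1000 bp of any protein-coding start. Of those 3459 peaks 21.5% were wider than the widest carrier peak. CCGGAAG was in 10 of 16 carrier peaks (62.5%, 38.6 to 81.5) and in 57.2% of the 3459, and CGGAAG was in 13 of 16 (81.2%, 57.0 to 93.4) and 76.6%. A GGAA core was in all 16, as in 98.8% of the peaks at protein-coding starts, and so short a sequence is common by chance. The 2 widest carrier peaks, at Slc25a40 and Slc25a44, were among the 3 with no CGGAAG, and the 4 narrowest, at Slc25a3, Slc25a5, Slc25a14 and Slc25a17, each held CCGGAAG. This arrangement was noticed after the values were seen.

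**Figure D3:**
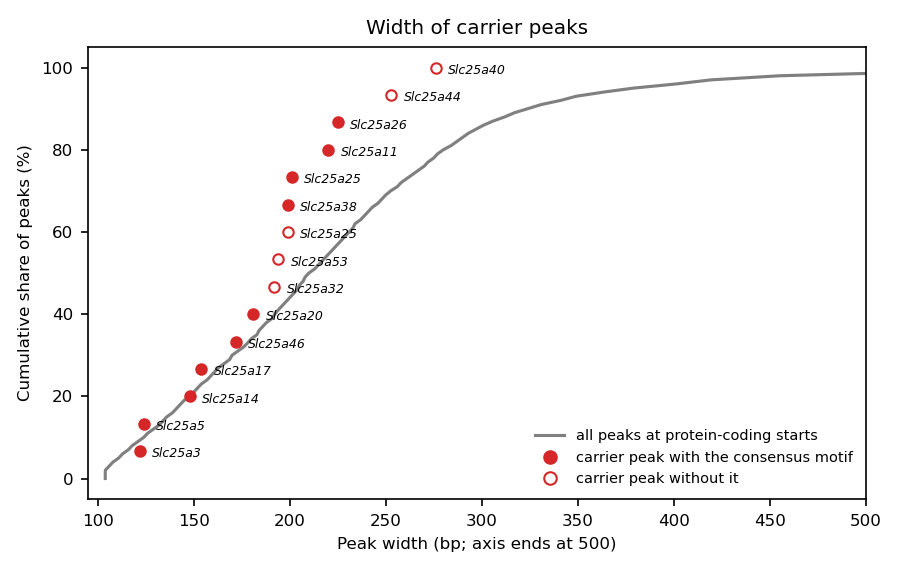
Cumulative distribution of peak width (bp) for 15 carrier peaks (circles, filled where the peak holds the consensus motif) and for the 3459 peaks within 1000 bp of a protein-coding start (grey line). The carrier peaks end at 276 bp, with the widest 2 unfilled, while 21.5% of the grey distribution lies beyond that width.

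The carrier peaks were centred close to the start. The midpoint lay at a median of 16.25 bp (6.5 to 75.5) from the nearest transcript start, against 29.5 bp (28 to 31.5) for peaks at all protein-coding starts, and in 13 of the 16 it was within 100 bp. From the gene start alone the median was 39.5 bp, and the midpoints at Slc25a14 and Slc25a53 were 329.5 and 257.5 bp from it. It was upstream of that start in 15 of the 16, the exception being Slc25a5. The midpoint was outside the gene, upstream of it, for 12 peaks, in a UTR for 2, and in an intron of Slc25a5 and Slc25a53. All 36-base sequences of the 16 peaks occur only 1 time in the genome, against the same in 90.3% of peaks at all protein-coding starts, and 13 of the 16 have no soft-masked base.

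In 5 of the 16 carrier peaks (31.25%, 14.2 to 55.6) another protein-coding gene also started within 1000 bp of the peak, and each time it was transcribed in the opposite direction. Among the 3459 peaks this share was 20.7%. With other genes of any type counted, which was the main setting, the order was the reverse. The carrier share stayed at 31.25% (14.2 to 55.6), against 35.99% of the 3459 peaks. Both values of the 3459 peaks lay inside the carriers' interval, so no difference from other peaks was shown. The peaks of Slc25a11, Slc25a32 and Slc25a40 covered a start of the neighbour too. These neighbours were Rnf167, a ubiquitin ligase, at 76 bp from start to start, Dcaf13 at 149 bp, and Dbf4, the activator of the replication kinase Cdc7, at 181 bp. Naif1 started 893 bp from the peak over the Slc25a25 start, and B930094E09Rik 330 bp from the Slc25a46 peak. Each of these last starts lay inside the carrier gene, downstream of the carrier's start. Position alone does not assign such a peak to either gene.

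The 35 unbound carriers had their nearest peak between 5344 and 473244 bp from a transcript start, with a median of 62593 bp. It was within 10000 bp for 3 of them, Slc25a2, Slc25a10 (7093 bp) and Slc25a22 (9284 bp), and over 100000 bp away for 14. The consensus near the start was more frequent in bound carriers. From 250 bp before to 50 bp after the gene start, CCGGAAG was found in 8 of 15 bound carriers (53.3%, 30.1 to 75.2) and in 1 of 35 unbound carriers (2.86%, 0.506 to 14.5). Over all protein-coding genes this window held it in 10.8%, with 41.7% among bound and 4.13% among unbound genes. Read the other way, 8 of the 9 carriers with the motif in this window were bound (88.9%, 56.5 to 98.0), against 68.5% of all genes with it, and 7 of 41 carriers without it (17.1%, 8.53 to 31.3), against 11.6%.

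Within 1000 bp of the gene start, 6 of the 35 unbound carriers had a copy of CCGGAAG (17.1%, 8.10 to 32.7), against 15.9% of all unbound protein-coding genes. With every transcript start counted, 10 of the 35 had a copy no farther than 1000 bp from a start, and 4 of these had it within 200 bp. The copies of these 4 are printed because they share the 7 bases with bound carriers and had no peak.
Slc25a1: ctccgcccctCCGGAAGttgggcgggg
Slc25a24: ggtccagcgcCCGGAAGagcgtttcgt
Slc25a4: cccctagctcCCGGAAGcgtcttcgcc
Slc25a54: gcctctctcaCCGGAAGcttggtatgg
They lie at chr16:17927890-17927916 (plus), chr3:109123275-109123301 (minus), chr8:46211176-46211202 (minus) and chr3:109080329-109080355 (minus). At Slc25a1 the copy is 16 bp upstream of an alternative transcript start, with another copy 53 bp upstream of the same start. At Slc25a24 and Slc25a4 it is 126 and 95 bp downstream of a start, and at Slc25a54 it is 127 bp upstream. All 36-base sequences within 500 bp of the gene start of these 4 carriers occur only 1 time in the genome. Slc25a54 is the unbound carrier with the motif in the window from 250 bp before the gene start, and its observed to expected CpG ratio was 0.399, below that of every bound carrier.

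Most unbound carriers, 25 of 35, did not start in CpG-poor sequence. The observed to expected CpG ratio within 500 bp of the gene start was at or above 0.5 in 39 of 50 carriers (78%, 64.8 to 87.2), against 53.6% of all protein-coding genes. Of these 39 carriers 14 were bound (35.9%, 22.7 to 51.6), against 29.7% of all protein-coding genes with such a ratio. Among the 11 carriers below 0.5, 1 was bound, Slc25a17 (0.470), which is 9.09% (1.62 to 37.7) against 3.81% of all such genes. The unbound carriers below 0.5 were Slc25a2, Slc25a18, Slc25a22, Slc25a34, Slc25a41, Slc25a43, Slc25a45, Slc25a54, Ucp1 and Ucp3. The median ratio was 0.636 (0.567 to 0.861) in bound and 0.675 (0.553 to 0.753) in unbound carriers, a difference within the intervals. Over all genes it was 0.765 in bound and 0.441 in unbound ones. The median GC content was 54.3% (53.0 to 62.5) in bound and 59.9% (56.8 to 61.7) in unbound carriers. Here the bound median lay below the interval of the unbound carriers, though the 2 intervals overlapped. Over all genes the order was the reverse, with 58.1% in bound and 53.6% in unbound ones.

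**Figure D4:**
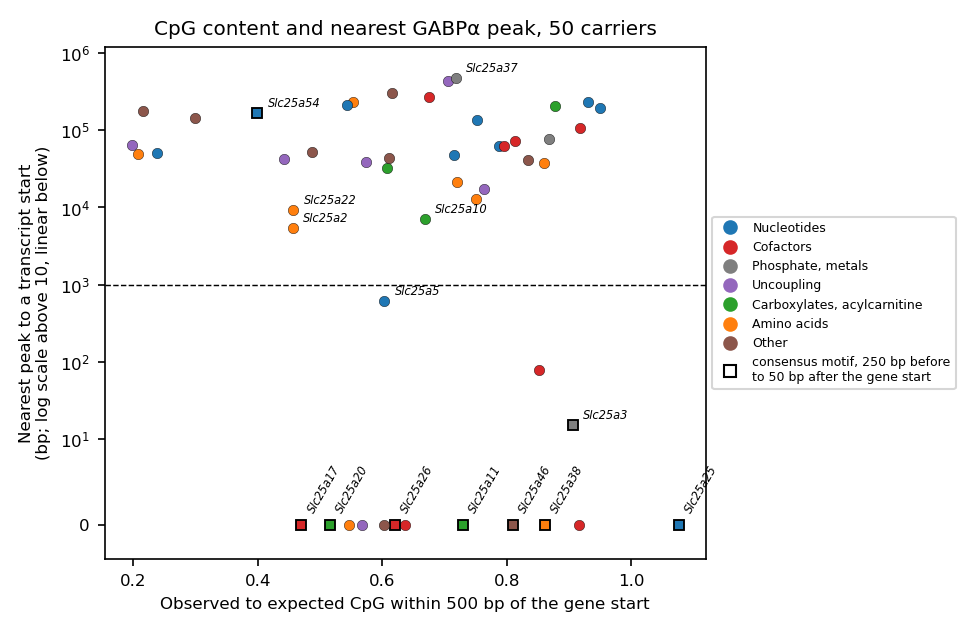
Observed to expected CpG ratio within 500 bp of the gene start (x axis) and distance of the nearest GABPα peak from a transcript start (y axis, bp, log scale above 10 and linear below) for the 50 carriers, coloured by substrate. Squares hold the consensus motif from 250 bp before to 50 bp after the gene start, and 8 of these 9 lie under the dashed line at 1000 bp, where the 15 bound carriers are, with none of the unbound carriers closer than 5344 bp.

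Other transport genes of mitochondria were set beside the carriers. A list of 22 other genes, mainly of solute transport, was taken from genes that the symbol rule had not made carriers. Membership of the family was not checked for them beyond the symbol. Of these 22 genes, 2 were bound (9.09%, 2.53 to 27.8, an interval that includes the 17.7% of all protein-coding genes), Mpc1 and Mpc2, which together form the pyruvate carrier. Their peaks were 115 bp wide, 230 bp from a start, and 288 bp wide, over the start. The porins Vdac1, Vdac2 and Vdac3, the calcium uniporter genes Mcu, Mcub, Micu2 and Smdt1, Letm1, Slc8b1, the sideroflexins Sfxn1 to Sfxn5, Mtch1, Mtch2, Abcb8 and Abcb10 had no peak within 1000 bp. Of the 7 genes for the route by which carriers are imported, 6 were bound (85.7%, 48.7 to 97.4, against the same 17.7%): Tomm70a, Timm9, Timm10, Timm10b, Timm29 and Agk, with peaks from 156 to 438 bp wide, while Timm22, the channel itself, was not. Both lists were drawn up with earlier results of these data known.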

How the data were processed

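The deposited file is a list of 6782 peak intervals in bp on mm10 with no score, so no signal, count or q-value was used. Per the study's methods, single-end reads of 36 bp were cleaned by the authors with trimmomatic and mapped with bowtie, and MACS2 called peaks against input DNA. Starts were taken as 0-based and printed as 1-based, on GRCm38.p6 sequence (the build of mm10) and GENCODE M21, with all annotated transcripts. Positions of motifs are of their central base. Substrate groups and lists are from textbook knowledge, and the carriers and lists were chosen with earlier results of these data known. The carriers are named, except that 1 carrier and 2 of the other transport genes are not reported here by name, though they are in the counts. The carriers with a peak are given with full values, and motif windows are shown for peaks with CCGGAAG except on chromosome 18. Windows of peaks without it, and of unbound carriers with a copy within 200 bp of a start, were added after their values were seen. 36-base sequences were counted on both strands of the 21 chromosomes. Motif search, distances, intervals and uniqueness were tested on simulated data. Python 3.11.15, numpy 2.4.6, scipy 1.17.1, numba 0.67.0 and matplotlib 3.10.9 were used. Expression arrays of the study were not analysed here.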

Additional observations from a re-analysis of the deposited data

How the results depend on the processing

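The count of bound carriers was recomputed with other windows, starts, peak sets and members. It was 12 when the start had to lie in the peak (Slc25a3, Slc25a5 and Slc25a32 were lost), against 13.9% of all protein-coding genes. It was 14 within 200 bp or 500 bp (Slc25a5 was lost), against 16.4% and 17.2%, and 15 within 5000 bp, against 19.9%, a value inside the carriers' interval (19.1 to 43.8). It was 11 with peaks at least as wide as the median of the list, 157 bp, where Slc25a3, Slc25a5, Slc25a14 and Slc25a17 were lost, when such peaks lay at 14.0% of all protein-coding genes, a value inside the carriers' interval (12.8 to 35.2). Gene starts only, starts of protein-coding transcripts only, peak midpoints and peaks of unique sequence each left 15. The shares of all protein-coding genes under these settings were 16.4%, 17.3%, 17.6% and 16.1%, in that order. Without Ucp1, Ucp2 and Ucp3 the share of carriers was 31.9% of 47. The share of carrier peaks with the motif moved with the motif: it was 100% with GGAA and 31.25% with CCGGAAGT, against 62.5% with CCGGAAG. In all peaks within 1000 bp of a protein-coding start these shares were 98.8%, 30.5% and 57.2%. The other alternatives left the share with the motif, the width, the distance and the share near another gene within the interval of the main value. No paired analysis was possible because there was 1 ChIP library. The empty score column allowed no stricter threshold than width.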
